A study of Mus musculus with 16 samples.

Results

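The Hox genes encode homeodomain transcription factors that give cells a position along the body axis. The set described here is every protein-coding gene of the deposited mouse count table whose symbol is Hoxa, Hoxb, Hoxc or Hoxd followed by a number, 39 of 51912 genes, with antisense transcripts left out. The 39 genes lie in 4 clusters: 11 Hoxa genes on the minus strand at chr6:52155590-52260880, 10 Hoxb genes on the plus strand at chr11:96194316-96368256, 9 Hoxc genes on the plus strand at chr15:102921103-103036852 and 9 Hoxd genes on the plus strand at chr2:74668310-74765142 (GRCm38). They were measured in nuclei of the outer muscle layer of the colon of specific pathogen-free C57BL/6 mice, all of which had received the adeno-associated virus AAV9-CaMKII-EGFPKASH by vein 5 weeks earlier. That virus puts a green fluorescent protein on the nuclear envelope under a CaMKII promoter, so the neuronal nuclei are those that a sorter called EGFP-positive and the non-neuronal nuclei are the EGFP-negative remainder. Mice received either 3-methylcholanthrene, an agonist of the aryl hydrocarbon receptor (AhR), or corn oil into the peritoneum 14 hours before the nuclei were taken. There were 4 groups of 4 libraries: neuronal nuclei after corn oil, neuronal nuclei after agonist, and the same pair for non-neuronal nuclei. Dose, age and sex, and whether the 4 libraries of a group came from separate mice or pools, are not stated in the labels, so the p-values below measure the spread between these libraries, which may be technical. The column names of the table carry a project name that mentions an AhR knockout, which the labels do not explain; the labels give no genotype but the strain.

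In every cluster the genes are numbered from the end that is switched on first and most anteriorly (paralogue group 1) to the end switched on last and most posteriorly (paralogue group 13), an order called collinearity. Genes with the same number in different clusters are paralogues, copies descended from the same ancestral gene. Hox proteins bind DNA together with PBX and MEIS cofactors, retinoic acid switches on the low-numbered end, and Polycomb and Trithorax complexes keep the genes silent or active afterwards. The enteric neurons descend from the neural crest, mostly from its vagal part beside the hindbrain and to a smaller extent in the hindgut from its sacral part, whereas smooth muscle, fibroblasts and vessels of the gut wall are mesodermal and the epithelium endodermal. Paralogue groups are called anterior (1 to 3, 8 genes), central (4 to 8, 15 genes) and posterior (9 to 13, 16 genes) in what follows.

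The start regions of the genes whose level differed between the populations after corn oil are printed here. Each runs from 250 bases before to 50 bases after a RefSeq transcript start on GRCm38.p6 (300 bases), 5′ to 3′ on the gene's own strand. Capitals mark matches, on either strand, to GCGTG, the core that AhR and its partner ARNT bind, and to TGATNNAT, a site of HOX and PBX together. Hoxb6 is not in the RefSeq table used. The Hoxd3 window also covers the annotated start of Hoxd4 (chr2:74711929). The Hoxa9 window lies inside the annotated gene, whose 5′ end is at chr6:52231089. The part of these sequences in the levels was not tested.
Hoxa2, chr6:52164782-52165081, minus strand: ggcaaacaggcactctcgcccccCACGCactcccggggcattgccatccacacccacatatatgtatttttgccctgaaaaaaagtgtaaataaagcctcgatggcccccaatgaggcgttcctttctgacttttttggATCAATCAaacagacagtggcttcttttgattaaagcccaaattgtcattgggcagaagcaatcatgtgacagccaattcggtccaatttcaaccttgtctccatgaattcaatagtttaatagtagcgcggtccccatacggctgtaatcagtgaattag
Hoxd3, chr2:74711743-74712042, plus strand: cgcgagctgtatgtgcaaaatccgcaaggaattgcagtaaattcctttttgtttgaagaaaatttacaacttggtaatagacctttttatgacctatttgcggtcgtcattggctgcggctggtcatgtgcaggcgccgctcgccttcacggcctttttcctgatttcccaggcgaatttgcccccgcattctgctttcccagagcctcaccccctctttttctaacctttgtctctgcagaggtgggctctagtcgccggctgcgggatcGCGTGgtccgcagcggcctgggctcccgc
Hoxa9, chr6:52227321-52227620, minus strand: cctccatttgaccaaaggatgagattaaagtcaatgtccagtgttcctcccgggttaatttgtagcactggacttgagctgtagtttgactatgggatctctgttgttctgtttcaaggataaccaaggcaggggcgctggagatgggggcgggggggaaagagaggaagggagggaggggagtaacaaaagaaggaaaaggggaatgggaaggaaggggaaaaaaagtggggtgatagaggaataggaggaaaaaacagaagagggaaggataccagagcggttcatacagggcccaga
Hoxd10, chr2:74691641-74691940, plus strand: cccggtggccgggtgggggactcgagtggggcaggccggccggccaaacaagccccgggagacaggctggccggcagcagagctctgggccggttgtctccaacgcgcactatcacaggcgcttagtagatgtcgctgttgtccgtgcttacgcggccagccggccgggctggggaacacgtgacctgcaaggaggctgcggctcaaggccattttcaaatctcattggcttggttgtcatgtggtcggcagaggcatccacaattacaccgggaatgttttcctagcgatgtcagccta
Hoxd11, upstream start, chr2:74679308-74679607, plus strand: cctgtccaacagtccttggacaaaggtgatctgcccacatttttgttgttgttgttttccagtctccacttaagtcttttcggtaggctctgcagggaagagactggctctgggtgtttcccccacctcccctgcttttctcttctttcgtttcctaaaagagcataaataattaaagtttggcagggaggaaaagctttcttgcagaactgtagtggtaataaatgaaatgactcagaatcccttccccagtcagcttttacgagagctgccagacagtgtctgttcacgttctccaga
Hoxd11, downstream start, chr2:74682073-74682372, plus strand: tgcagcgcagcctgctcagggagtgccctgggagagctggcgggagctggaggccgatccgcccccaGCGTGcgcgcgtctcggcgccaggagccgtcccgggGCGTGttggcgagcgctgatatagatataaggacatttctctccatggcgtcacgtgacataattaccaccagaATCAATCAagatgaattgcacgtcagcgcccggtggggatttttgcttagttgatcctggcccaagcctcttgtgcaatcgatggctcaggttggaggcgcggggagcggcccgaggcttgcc
The Hoxa2 window held 1 match to each motif, the Hoxd3 window 1 AhR-ARNT core, and the downstream Hoxd11 window 2 cores and 1 HOX-PBX match. No match to either motif was found in the Hoxa9, Hoxd10 and upstream Hoxd11 windows. The table held 24 promoters of 22 Hox genes. The AhR-ARNT core was in 9 of these 24 (37.5%) against 32.4% of all 32851 promoters in the table. HOX-PBX matches were in 4 of 24 (16.7%) against 8.85% of all promoters. TTTATG, the core bound by the CDX proteins that act upstream of the posterior Hox genes, was in 5 of 24 (20.8%) against 11.9%. AGGTCA, the half-site of nuclear receptors such as the retinoic acid receptors, was in 7 of 24 (29.2%) against 16.3%. The median Hox promoter held 14.5 CpG dinucleotides against 7 over all promoters, with the Hoxd10 window at 22 and the Hoxa9 window at 4.

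Library totals ran from 2663738 to 4902303 counts, and the 39 Hox genes together took 648 to 1928 of them. Mitochondrial genes held 1.77% to 6.11% of the counts in neuronal libraries and 10.3% to 42.8% in non-neuronal ones. Of the 39 Hox genes, 18 to 24 had a count in a neuronal library and 22 to 34 in a non-neuronal one. The libraries were uneven in single genes: among the Hox genes with at least 40 counts in a group, the fullest library held a median of 37.0% of the group's count in neuronal nuclei after corn oil, 50.8% in non-neuronal nuclei after corn oil, and 55.8% and 55.5% in the neuronal and non-neuronal groups after agonist. In other genes the same medians were 35.5%, 47.8%, 46.3% and 60.9%. The labelled populations were checked against 6 neuronal markers (Elavl4, Snap25 and Ret among them), which summed to 1668 to 2070 CPM (counts relative to the library total) in neuronal and 59.8 to 279 CPM in non-neuronal libraries after corn oil, and to 1630 to 2359 and 20.6 to 206 CPM after agonist. Cyp1a1, the classic AhR target, was at 0 in every neuronal library after corn oil and at 2.52 to 8.05 TMM-scaled CPM (CPM adjusted by edgeR's trimmed mean of M-values) after agonist, and at 0 to 0.299 and 8.57 to 165 in the non-neuronal groups.

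Neuronal nuclei of the colon carried mainly Hox genes of paralogue groups 2 to 5. On the per-length scale (TPM, with the union of a gene's exons as its length), the order after corn oil was Hoxa2 at 113 ± 33.4 (SD, n = 4), Hoxa5 at 104 ± 37.5, Hoxd3 at 101 ± 33.5, Hoxb4 at 47.0 ± 12.3, Hoxb3 at 29.1 ± 9.05, Hoxb5 at 21.8 ± 9.27, Hoxa3 at 21.8 ± 8.16 and Hoxb6 at 16.9 ± 9.54. The leading 3 lay within each other's SD, Hoxb4 lay below them by more than the SDs, and each later gene overlapped its neighbour in the order. Hoxa2 stood at percentile 98.5 of all genes in the table, and Hoxa5 and Hoxd3 at 98.2. These percentiles include genes without counts: of the 51912 genes, 21063 to 26379 had a count in a neuronal library after corn oil. With the longest transcript as length, Hoxd3 led at 118 TPM and Hoxa3 took place 4 at 42.0. Hoxa2 sets the identity of hindbrain segments and of cranial neural crest, Hoxa3 patterns the pharynx and Hoxd3 the first neck vertebrae, Hoxb5 acts in enteric neural crest, and Hoxb3, Hoxb4 and Hoxa5 belong to hindbrain and neck levels. In neuronal nuclei after agonist the same 5 genes led the order: Hoxa2 at 119 ± 63.9, Hoxd3 at 68.3 ± 26.3, Hoxa5 at 66.4 ± 40.7, Hoxb4 at 63.5 ± 32.9 and Hoxb3 at 52.5 ± 29.0 TPM. Non-neuronal nuclei after corn oil had another order, with Hoxb6 at 42.2 ± 17.4 TPM, Hoxd10 at 28.2 ± 29.0, Hoxa5 at 28.0 ± 24.4, Hoxb5 at 19.5 ± 7.40 and Hoxa2 at 16.8 ± 8.98, each overlapping its neighbour within the SDs. After agonist the non-neuronal order was led by genes that a single library held, Hoxa4 at 30.6 ± 60.6 TPM and Hoxa10 at 12.9 ± 24.5, followed by Hoxa3 in place 3 (place 2 at 22.5 with the longest transcript), Hoxa5 at 10.8 ± 9.20 and Hoxb5 at 10.3 ± 7.49.

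**Figure D1:**
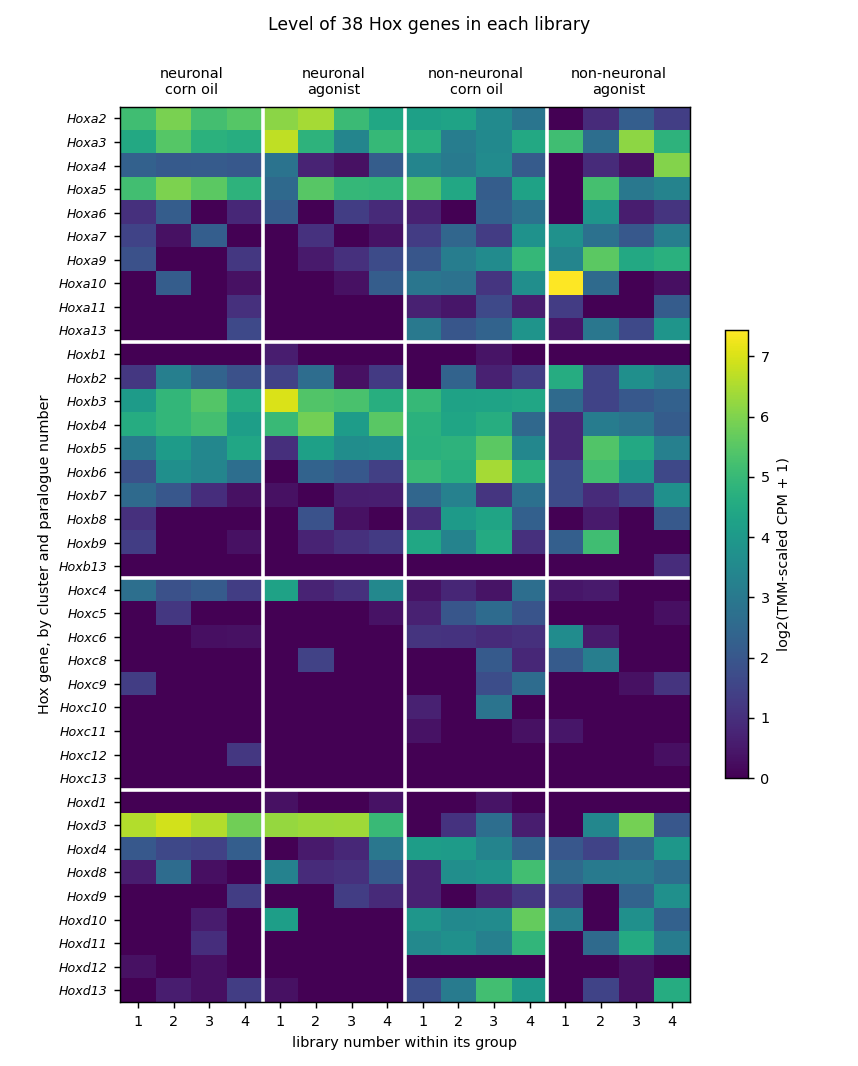
Heat map of the level of 38 Hox genes (rows, by cluster and paralogue number, lowest number on top of each block) in the 16 libraries (columns, 4 per group), as log2(TMM-scaled CPM + 1). The rows of Hoxa2, Hoxa5, Hoxb3, Hoxb4 and Hoxd3 are bright in the 4 neuronal libraries after corn oil, and those of Hoxa13, Hoxd10, Hoxd11 and Hoxd13 have counts in all 4 non-neuronal libraries after corn oil.

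After corn oil, the Hox RNA of neuronal nuclei came from anterior and central genes, and that of non-neuronal nuclei mostly from central and posterior ones. Anterior genes held 52.8%, 53.4%, 53.3% and 55.5% of the summed Hox TPM in the 4 neuronal libraries after corn oil, against 17.5%, 16.4%, 9.01% and 9.20% in the 4 non-neuronal ones. The groups did not overlap, and the neuronal libraries were close to each other. Posterior genes held 1.92%, 0.875%, 0.598% and 4.79% in neuronal and 20.9%, 18.5%, 25.8% and 43.0% in non-neuronal libraries. Central genes held 44.2% ± 2.99 (SD, n = 4) and 59.9% ± 8.26, the former 38.7% when the longest transcript stood for length. The mean paralogue number weighted by TPM was 3.75 ± 0.0642 in neuronal and 6.53 ± 0.913 in non-neuronal nuclei. After agonist, posterior genes held 0.237% to 6.08% in neuronal and 23.5% to 63.5% in non-neuronal libraries. The anterior share after agonist was 37.2% to 72.1% and 8.40% to 40.2%, so that these 2 ranges overlapped at the library with the lowest neuronal share and the one with the highest non-neuronal share. Central genes held 39.8% ± 15.6 in neuronal and 46.0% ± 24.0 in non-neuronal nuclei after agonist. In neuronal library 4 they held 59.8%, more than the anterior genes. In non-neuronal library 3 they held 35.9%, less than the anterior genes. Summed over all 39 genes, the level was 518 ± 132 TPM in neuronal and 283 ± 66.2 TPM in non-neuronal nuclei after corn oil, and 481 ± 92.5 and 180 ± 108 after agonist. As CPM without TMM scaling the sums were closer. They were 377 ± 77.7 and 305 ± 35.1 after corn oil, overlapping within the SDs, and 362 ± 84.7 and 213 ± 48.3 after agonist. The size of the gap thus depends on the scale. So does its direction after corn oil: in TMM-scaled CPM, the scale used for single genes below, the sum was not higher in neuronal nuclei. Mitochondrial genes held a mean of 3.37% of counts in neuronal and 17.0% in non-neuronal libraries after corn oil. After agonist they held 3.10% and 27.0%. The part of that in these sums was not tested. The shares of the 3 classes are descriptions, without a test. On the same strand, 62.3% of the exon bases of Hoxd3, an anterior gene, lie in Hoxd4, a central gene, or in Gm28230. Of the 75-base stretches of Hoxd3, 7.51% were shared with another Hox gene and 59.1% with any other gene. The assignment of reads between Hoxd3, Hoxd4 and Gm28230 can move the anterior and central shares. By how much was not tested, and shares with these genes summed were not computed. In sorted bulk nuclei, fewer nuclei of a type and less RNA per nucleus cannot be told apart.

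**Figure D2:**
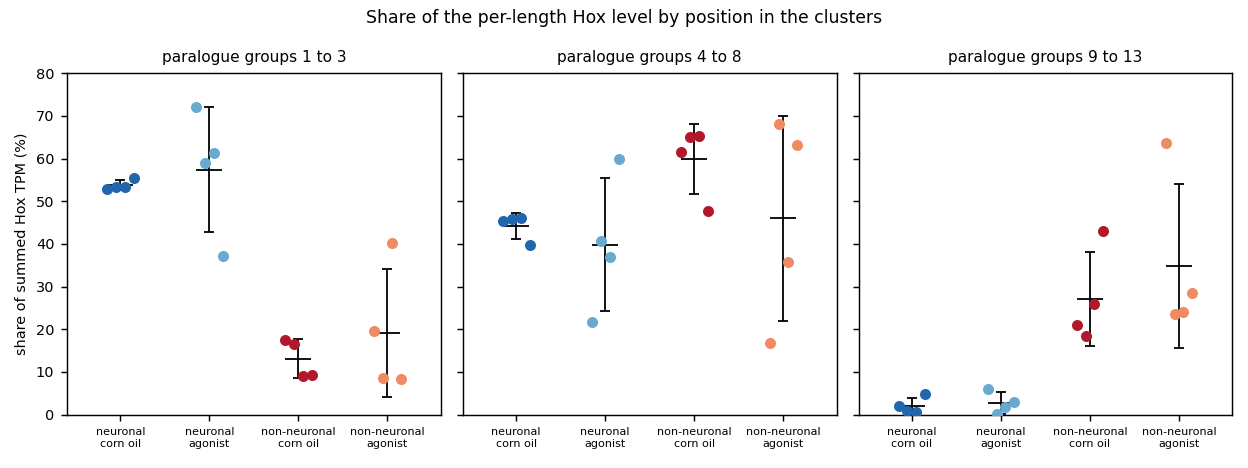
Share of the summed per-length Hox level (%, y axis) held by paralogue groups 1 to 3, 4 to 8 and 9 to 13 in each library (points) of the 4 groups, with the group mean and SD (black). Neuronal libraries after corn oil lie between 52.8% and 55.5% in the left panel, and all 8 neuronal libraries lie at or under 6.08% in the right panel.

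After corn oil, neuronal nuclei held more RNA of Hoxd3 and Hoxa2 and less of Hoxb6, Hoxa9, Hoxd10 and Hoxd11 than non-neuronal nuclei. Of the 39 genes, 17 had enough counts to be tested, and 2 were called higher and 4 lower (edgeR, adjusted p under 0.05 over all genes tested); of all 15285 genes tested, 25.4% were called, 11.8% higher and 13.5% lower. Scaling by library size alone moved the median log2 fold change of all genes from -0.11 to 0.11 and the share of higher calls among all calls from 46.7% to 55.4%. A count of 6 among 17 is not far from that background. In 2 of the 17 every neuronal library lay above every non-neuronal one, and in 5 below, against 15.1% and 15.5% of all genes tested. Genes absent from one population pass the count minimum only through the other, so the direction of the members that passed is no support by itself. Over all 39 members, tested or not, the summed CPM was higher in neuronal nuclei for 6 of 8 anterior, 3 of 15 central and 2 of 16 posterior genes, and lower for 2, 12 and 12, with 2 posterior genes at 0 in both. Of the 39, 7 (2 anterior and 5 posterior) held under 10 counts over both groups together. These include the posterior genes counted as higher, Hoxc12 (5 against 0 counts) and Hoxd12 (2 against 0). The same count was not made over all genes, so these directions have no background.

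Hoxd3 (chr2:74711927-74748442) had the largest difference of the 5 anterior genes tested after corn oil. Its level was 94.3, 120, 95.2 and 55.2 TMM-scaled CPM in the 4 neuronal libraries and 0, 1.13, 5.38 and 0.518 in the 4 non-neuronal ones. Every neuronal library stood above every non-neuronal one. The log2 fold change was 5.77 ± 0.80 (SE; adjusted p = 0.000187), and 7.50 without the third non-neuronal library, which held 18 of the group's 23 counts. Of the 75-base stretches of Hoxd3, 7.51% were shared with another Hox gene and 59.1% with any other gene. On the same strand, 62.3% of its exon bases lie in Hoxd4 or in a readthrough gene, Gm28230. Part of its reads can thus be assigned to either. The 3 genes summed stood at 97.4 ± 28.1 in neuronal and 20.1 ± 4.57 in non-neuronal nuclei, a log2 fold change of 2.36 ± 0.35 (adjusted p = 0.000339), which is a smaller difference in the same direction. Hoxd4 alone was lower in all 4 neuronal libraries (1.69 to 3.66) than in the non-neuronal ones (4.14 to 16.6) and was not called (log2 fold change -2.01 ± 0.76, adjusted p = 0.0691); with the summed unit its sign turns, since the unit is mostly Hoxd3.

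Hoxa2 (chr6:52162417-52164831) was the other anterior gene called. It stood at 34.6, 60.0, 36.3 and 43.7 TMM-scaled CPM in neuronal and 17.8, 18.8, 10.8 and 6.47 in non-neuronal nuclei, again without overlap. The log2 fold change was 1.78 ± 0.47 (adjusted p = 0.0121), and with all 4 groups in 1 fit, which then share 1 estimate of spread, the gene was not called (adjusted p = 0.132). Its readthrough partner, Gm28308, held 0 to 5 counts per library. The remaining anterior genes tested, Hoxa3, Hoxb2 and Hoxb3, had log2 fold changes of 0.90, 1.44 and 0.43 and were not called (adjusted p = 0.233, 0.389 and 0.554). Hoxb3, for example, was at 27.7 ± 11.2 TMM-scaled CPM in neuronal and 21.9 ± 5.74 in non-neuronal nuclei. Hoxb1 and Hoxd1 had 3 counts each over all 16 libraries.

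Among central genes, only Hoxb6 (chr11:96292476-96301569), a gene of trunk levels, was called. It stood at 2.62, 12.1, 9.43 and 5.49 TMM-scaled CPM in neuronal and at 31.7, 24.8, 84.9 and 25.9 in non-neuronal nuclei after corn oil. No neuronal library reached a non-neuronal one. The log2 fold change was -2.39 ± 0.61 (adjusted p = 0.0104). Without the third non-neuronal library, the highest, it was -1.76 with an adjusted p of 0.0538, and with all 4 groups in 1 fit the adjusted p was 0.111, so the call rests on that library and on the estimate of spread. Hoxa5, which has roles in lung and gut development, was at 27.2 to 61.3 (mean 42.4) in neuronal and 3.59 to 42.3 (mean 21.3) in non-neuronal nuclei, and Hoxb4 at 26.5 ± 8.26 and 18.5 ± 9.56, neither called (adjusted p = 0.218 and 0.470). Hoxb5 was at 13.3 ± 5.79 and 26.9 ± 14.7 and was not called either (adjusted p = 0.275). Hoxa4, Hoxb7 and Hoxd8 had log2 fold changes of -1.07, -1.02 and -3.26 (adjusted p = 0.328, 0.507 and 0.0841). Hoxb8, left out by the count minimum, had 4 counts over the neuronal libraries and 123 over the non-neuronal ones.

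Posterior genes were rare in neuronal nuclei. Hoxd10 (chr2:74691924-74695105), a gene of lumbar and limb levels, stood at 0, 0, 0.483 and 0 TMM-scaled CPM in neuronal and at 13.9, 10.5, 11.1 and 50.2 in non-neuronal nuclei after corn oil. Its log2 fold change was -6.99 ± 1.16 (adjusted p = 0.000672). The neuronal side rests on 2 counts in 1 library against 306, a ratio of summed CPM of 140 (95% exact interval 38.3 to 1159) in favour of non-neuronal nuclei, and of 70.5 without non-neuronal library 4. Its neighbour Hoxd11 (chr2:74679557-74687016), which acts in limb and kidney, was at 0, 0, 0.967 and 0 against 10.4, 12.4, 8.37 and 28.5. The log2 fold change was -5.64 ± 1.19 (adjusted p = 0.00337), and -8.69 without neuronal library 3, which alone held counts, 4 in all. Hoxd10 gave -9.21 without the same library and -6.10 without non-neuronal library 4, the highest. Gm28309, a readthrough gene that overlaps both, held 0 to 5 counts per library. Hoxa9 (chr6:52223100-52231089), known for its part in blood stem cells and trunk patterning, was at 2.62, 0, 0 and 1.31 against 2.96, 7.88, 11.1 and 29.8. The highest neuronal library lay just under the lowest non-neuronal one. Its log2 fold change was -3.60 ± 1.21 (adjusted p = 0.0442), a call lost without neuronal library 2, 3 or 4 (adjusted p = 0.102, 0.100 and 0.0963), without non-neuronal library 3 or 4 (adjusted p = 0.0608 and 0.125), with library size alone as the scale (adjusted p = 0.0639), with all 4 groups in 1 fit (adjusted p = 0.0558) and with the replicate number as a block (adjusted p = 0.0539). Hoxa10 was not called (log2 fold change -2.61 ± 1.29, adjusted p = 0.166).

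The hindgut genes Hoxa13 and Hoxd13, which pattern the most posterior gut and the genital region, did not reach the count minimum in this comparison. Hoxa13 stood at 0, 0, 0 and 2.09 TMM-scaled CPM in neuronal and 7.10, 3.00, 4.19 and 13.5 in non-neuronal nuclei after corn oil. Hoxd13 stood at 0, 0.513, 0.242 and 1.57 against 2.37, 7.51, 35.0 and 15.3. In both, each non-neuronal library exceeded each neuronal one, a measurement without a test. Hoxb9 had 7 counts in neuronal and 172 in non-neuronal nuclei. With no count minimum, Hoxb8, Hoxb9, Hoxd8 and Hoxd13 were called lower as well (log2 fold changes -4.91, -4.60, -3.22 and -4.43; adjusted p = 0.00910, 0.00336, 0.0199 and 0.00199), which brought the lower calls to 8, and Hoxa13 was not among them. Hoxc8 and Hoxc10 were at 0 in the 4 neuronal libraries and at 14 and 23 counts in the non-neuronal ones, of which non-neuronal library 3 held 11 and 21, so both differences rest on that library. The whole Hoxc cluster was sparse, with 3.90 to 9.05 CPM per library in neuronal and 3.18 to 15.5 in non-neuronal nuclei after corn oil, and Hoxc13 had no count in any of the 16 libraries. Hoxc4, the anterior end of that cluster, held most of the cluster's neuronal counts after corn oil, at 5.50, 2.57, 3.38 and 1.57 TMM-scaled CPM against 0.296, 0.751, 0.299 and 5.44 in non-neuronal nuclei. After agonist Hoxc4 had 116 counts in neuronal and 2 in non-neuronal nuclei, a ratio of 70.1 (95% exact interval 19.0 to 586; 37.6 without neuronal library 1), with neuronal libraries 1 and 4 at 18.4 and 9.99 and the other 2 at 0.657 and 1.04. Over all comparisons, 25 of the 39 genes were tested at least once and 14 never, among them 7 with fewer than 10 counts over the 16 libraries (Hoxb1, Hoxb13, Hoxc11, Hoxc12, Hoxc13, Hoxd1 and Hoxd12).

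**Figure D3:**
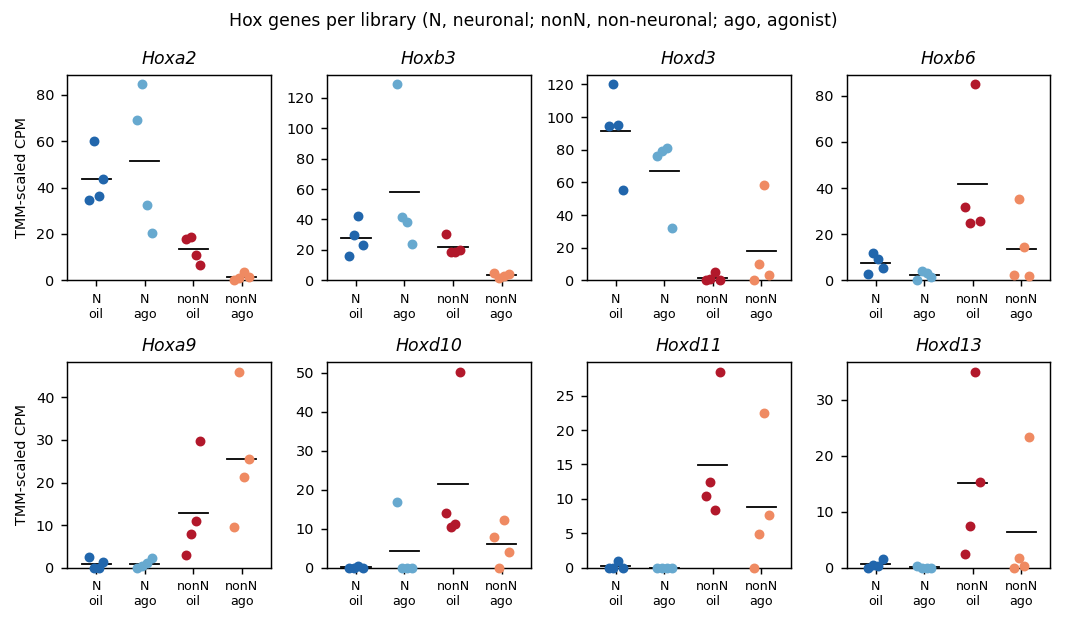
TMM-scaled CPM (y axis, linear, from 0) of 8 Hox genes in each of the 16 libraries (points), by group, with the group mean (line); N is neuronal, nonN non-neuronal, oil corn oil and ago agonist. Hoxa2 and Hoxd3 are high in neuronal nuclei after corn oil, Hoxb6, Hoxa9, Hoxd10, Hoxd11 and Hoxd13 in non-neuronal nuclei, and Hoxb3 is separated after agonist.

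The populations differed in their cell makeup in the same libraries. Summed over each list of markers, without TMM scaling, smooth muscle (Myh11, Acta2 and 3 more) stood at 248 to 1009 CPM in neuronal and 2851 to 11910 in non-neuronal nuclei after corn oil, with 5 of 5 markers called lower in neuronal nuclei. Colonic epithelium (Epcam, Muc2 and 4 more) stood at 15.4 to 96.6 and 1528 to 10880, with 6 of 6 lower; this list is not of the muscle layer that was collected. Fibroblast and PDGFRA-cell markers were at 12.7 to 60.1 and 201 to 1336 (5 of 5 lower), lymphatic endothelium at 4.83 to 9.42 and 232 to 650 (3 of 3 lower), and glial markers at 7.60 to 25.1 and 10.4 to 60.7 (1 of 2 tested lower). Blood endothelium was at 1.14 to 14.3 and 68.9 to 185 (3 of 3 lower), macrophages at 0.608 to 8.12 and 73.0 to 151 (2 of 3 tested lower), and lymphocytes at 0 to 7.14 and 60.9 to 170 (2 of 2 tested lower). Markers of interstitial cells of Cajal were at 476 to 572 and 170 to 530 (1 of 3 higher, 2 lower), and those of mesothelium at 0 to 0.974 and 1.59 to 9.76 (none tested). All 6 neuronal markers were higher in neuronal nuclei. After agonist the ranges were 219 to 611 and 1515 to 5425 CPM for smooth muscle, 4.28 to 35.2 and 870 to 3548 for epithelium, and 5.19 to 17.3 and 189 to 806 for fibroblasts. The part of these cells in the level of Hoxb6, Hoxa9, Hoxd10 and Hoxd11 was not tested.

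After agonist, with 4 other libraries of each population, Hoxa2 and Hoxb3 were higher and Hoxa9 lower in neuronal nuclei. Of the 39 genes, 14 were tested, 2 were called higher and 1 lower; of all 14065 genes tested, 13.6% were called, 6.67% higher and 6.97% lower. Scaling by library size alone shifted the median log2 fold change of all genes from -0.15 to 0.43 and the share of higher calls among all calls from 48.9% to 67.2%. Hoxa2 stood at 69.1, 84.5, 32.4 and 20.5 TMM-scaled CPM in neuronal and at 0, 0.903, 3.66 and 1.62 in non-neuronal nuclei. The populations did not overlap, and the log2 fold change was 4.99 ± 1.13 (adjusted p = 0.00820). Hoxb3 stood at 129, 41.6, 38.4 and 24.1 against 4.91, 1.81, 3.14 and 3.94. Its log2 fold change was 4.01 ± 0.90 (adjusted p = 0.00771), 3.34 without the first neuronal library, the highest (adjusted p = 0.0366). On the opposite strand, 52.9% of the exon bases of Hoxb3 overlap the antisense gene Hoxb3os; the 2 summed gave 3.15 ± 0.82 (adjusted p = 0.0182). Whether the counting used strand is not stated in the labels, so reads of the 2 genes may not be separable.

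Hoxa9 was the posterior gene called after agonist. It stood at 0, 0.438, 1.04 and 2.22 TMM-scaled CPM in neuronal and at 9.45, 46.0, 21.2 and 25.5 in non-neuronal nuclei, 27.1-fold lower (log2 fold change -4.76, adjusted p = 0.0232). The groups were well apart. The call was lost with library size alone (adjusted p = 0.0530), without the 2 libraries in which mitochondrial genes held over 30% of counts (adjusted p = 0.0664), without neuronal library 2 or 3 (adjusted p = 0.0808 and 0.0692) and without non-neuronal library 2 (adjusted p = 0.0532). Hoxb4 stood at 31.8, 56.7, 16.4 and 45.5 against 0.756, 7.67, 6.28 and 3.47, and Hoxa7 at 0, 1.09, 0 and 0.278 against 12.5, 5.87, 3.14 and 8.10. Neither pair of groups overlapped, and neither gene was called (log2 fold change 3.03 ± 0.98 and -4.27 ± 1.48, adjusted p = 0.0531 and 0.0719). Among the members tested, 3 did not overlap and were higher and 2 did not overlap and were lower, against 11.7% and 9.96% of all genes tested.

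Hoxd3 was not called after agonist. Its level was 76.1, 79.5, 81.0 and 31.9 TMM-scaled CPM in neuronal and 0, 9.93, 58.3 and 3.01 in non-neuronal nuclei. The third non-neuronal library overlapped the neuronal range (log2 fold change 1.93 ± 1.12, adjusted p = 0.310). Without that library the value was 3.92 and the gene was called (adjusted p = 0.0420). Hoxd10 was at 16.9, 0, 0 and 0 against 7.94, 0, 12.3 and 3.94, so that the first neuronal library stood apart from the other 3 (log2 fold change -0.58 ± 1.77, adjusted p = 0.889). Hoxd11 was at 0 in all 4 neuronal libraries and at 0, 4.96, 22.5 and 7.64 in the non-neuronal ones, at least 35.9-fold lower by summed counts (against a floor of 3 counts over the neuronal group) and at least 16.7-fold lower without non-neuronal library 3, which held 86 of 130. Hoxa13 was likewise at 0 in neuronal nuclei, with 83 counts in non-neuronal nuclei, at least 22.9-fold lower, and at least 8.73-fold lower without non-neuronal library 4, which held 59. Hoxd13 had 1 count against 106, a ratio of 87.7 (95% exact interval 15.4 to 3496) in favour of non-neuronal nuclei, of which library 4 held 101; without it the ratio was 5.46, from 5 counts. Hoxa11 and Hoxc6 were at 0 in neuronal nuclei and at 19 and 31 counts in non-neuronal ones. Of these, 15 Hoxa11 counts lay in library 4 and 30 Hoxc6 counts in library 1, so the difference in each rests on 1 library.

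Single libraries decided other genes after agonist. Hoxa10 had 172 TMM-scaled CPM in the first non-neuronal library and 4.96, 0 and 0.231 in the others. Hoxa4 stood at 64.8 in library 4 and at 0 to 0.903 in the other 3. Hoxb9 was at 34.7 in the second and at 0 to 3.78 elsewhere. In neuronal nuclei, Hoxa3 was at 104 in the first library and 9.34 to 30.8 in the other 3, where Hoxa5 ran the other way, at 4.79 in the first and 28.9 to 44.4 in the others. In the fit, Hoxa3 and Hoxa5 had log2 fold changes between populations of 0.29 and 1.00 (adjusted p = 0.890 and 0.670), and Hoxb2, Hoxb5, Hoxb6 and Hoxd8 of -2.38, -0.77, -2.58 and -0.88 (adjusted p = 0.259, 0.751, 0.273 and 0.703).

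Of the 12 Hox genes tested in both population comparisons, which share no library, 11 had the same sign after corn oil and after agonist, the exception being Hoxb2, and 2 were called the same way in both, Hoxa2 higher and Hoxa9 lower. Of all 13306 genes tested in both, 74.7% had the same sign and 11.2% were called the same way in both, so 2 of 12 is near the background.

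**Figure D4:**
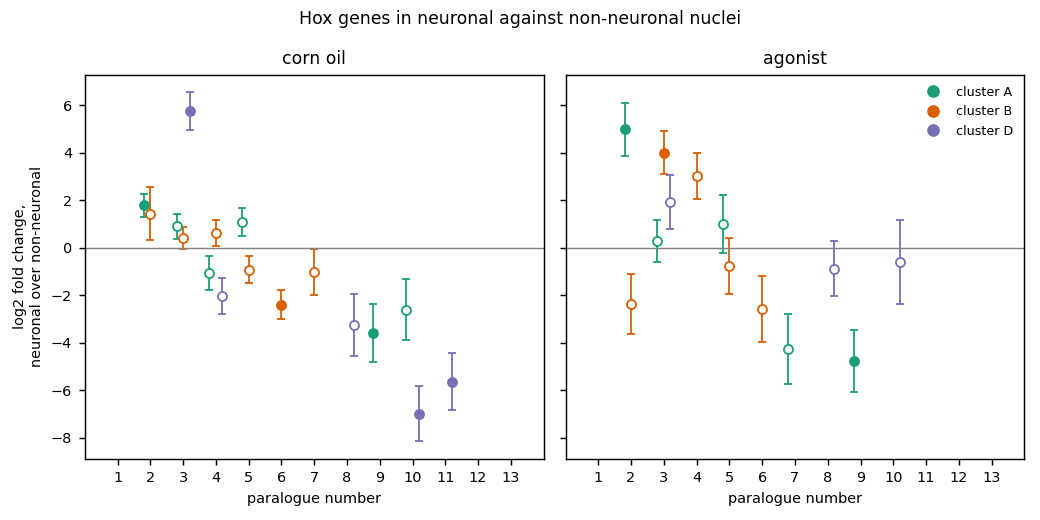
Log2 fold change of neuronal over non-neuronal nuclei (y axis, ± SE) for each Hox gene tested, by paralogue number (x axis) and cluster (colour), after corn oil (left, 17 genes) and after agonist (right, 13 genes); filled points were called at an adjusted p under 0.05. After corn oil the 5 tested genes of groups 1 to 3 lie above 0. The 4 tested genes of groups 9 to 13 lie below it. Genes near 0 in neuronal nuclei pass the count minimum only through non-neuronal nuclei, so these signs are no support by themselves. Hoxd3 is at 5.77 here and at 2.36 when summed with the genes that share its exons.

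No Hox gene was called in either population in response to the agonist. In neuronal nuclei 12 of the 39 were tested, with 0 called, 0 at an unadjusted p under 0.05, and 0% of all 14182 genes called (edgeR; 711 genes had an unadjusted p under 0.05, and DESeq2 called 9 genes, none of them Hox). The log2 fold changes of agonist over corn oil ran from -1.71 (Hoxb6, adjusted p = 0.903) to 1.20 (Hoxc4, adjusted p = 0.923). For the genes at the highest per-length levels they were 0.25 ± 0.45 for Hoxa2, -0.65 ± 0.56 for Hoxa5, -0.44 ± 0.36 for Hoxd3, 0.50 ± 0.46 for Hoxb4 and 1.07 ± 0.53 for Hoxb3 (adjusted p = 0.971, 0.927, 0.919, 0.936 and 0.903). Each lay within the spread of its libraries, and none of the 12 genes had groups that did not overlap, against 3.64% of all genes tested (1.47% higher and 2.16% lower).

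In non-neuronal nuclei 22 of the 39 were tested, with 0 called and 2 at an unadjusted p under 0.05; of all 14846 genes 0.0135% were called (2 genes, Cyp1a1 among them; 715 genes had an unadjusted p under 0.05, and DESeq2 called 35, no Hox gene among them). The 2 were Hoxa2, with a log2 fold change of -3.04 ± 1.31 (unadjusted p = 0.0347, adjusted p = 0.954), and Hoxb3, at -2.61 ± 0.99 (unadjusted p = 0.0184, adjusted p = 0.954). Both were lower in all 4 agonist libraries than in all 4 corn oil libraries: Hoxb3 at 1.81 to 4.91 against 18.4 to 30.5 TMM-scaled CPM, and Hoxa2 at 0 to 3.66 against 6.47 to 18.8. Of all genes tested, 3.42% did not overlap, 1.25% higher and 2.17% lower. Scaling by library size alone moved the median of all genes in this comparison from 0.13 to -0.28. Mitochondrial genes held 10.3% to 42.8% of counts in the agonist and 11.2% to 26.3% in the corn oil libraries, and the part of that in these values was not tested. Other members had large values with wide errors, such as Hoxd3 (3.35 ± 1.67), Hoxb2 (2.85 ± 1.42), Hoxa10 (2.83 ± 1.62) and Hoxb8 (-3.26 ± 1.59), each with an adjusted p of 0.954.

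The difference of the agonist response between the populations was tested for 25 Hox genes in 1 fit of all 16 libraries. None was called, and 0% of all 18566 genes were (edgeR; 1484 genes had an unadjusted p under 0.05, and DESeq2 called 103). At an unadjusted p under 0.05 there were 6 members, among them Hoxb3 (difference 3.72 ± 0.92 on the log2 scale, adjusted p = 0.263), Hoxa2 (3.28 ± 1.06, adjusted p = 0.449), Hoxb4 (2.52 ± 1.04, adjusted p = 0.570), Hoxd10 (6.56 ± 2.40, adjusted p = 0.505) and Hoxd3 (-3.77 ± 1.46, adjusted p = 0.538). A positive difference is a response more positive in neuronal nuclei. With DESeq2 Hoxb3 was called (3.65, adjusted p = 0.00549), and with no count minimum Hoxd3 was called (-3.80, adjusted p = 0.0364). The responses and the population comparison after corn oil share the corn oil libraries, so their values are not independent of each other. Neuronal Hoxd10 had 67 counts after agonist, all in library 1, and 2 after corn oil. The value of Hoxd10 turned to -0.45 without the first neuronal agonist library.

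Among the partners of the Hox proteins, Meis3 was higher and Meis2 lower in neuronal nuclei after corn oil. Of the 9 PBX, MEIS and PREP cofactors, 8 were tested, 1 was called higher and 2 lower, near the 25.4% of all genes called (11.8% higher, 13.5% lower), with a list median log2 fold change of -0.62 against -0.11 over all genes tested. Meis3, which acts with Hox proteins in the hindbrain and in enteric neural crest, stood at 18.3, 42.6, 25.6 and 21.2 TMM-scaled CPM in neuronal and at 1.78, 3.38, 3.89 and 5.44 in non-neuronal nuclei, a log2 fold change of 2.96 ± 0.60 (adjusted p = 0.00249). Meis2 stood at 3.67, 2.82, 4.35 and 20.7 against 312, 149, 112 and 507, a log2 fold change of -5.01 ± 0.70 (adjusted p = 0.000212). Meis1 was at 147 ± 23.3 and 115 ± 86.6 and was not called (adjusted p = 0.492). After agonist, Meis2 was again lower (-5.88, adjusted p = 0.000570), 1 of 2 lower calls among 8 tested (all genes 13.6% called, 6.97% lower), and Meis3 was not called (1.28, adjusted p = 0.545).

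Among regulators of the clusters, Kmt2a and Rarb were higher and Ezh2, Aldh1a1 and Dhrs3 lower in neuronal nuclei after corn oil. Of 28 Polycomb and Trithorax genes, 25 were tested after corn oil; 3 were higher and 1 lower, a smaller share than the 25.4% of all genes called, with a median of -0.03. The higher genes were Kmt2a, the Trithorax-type methyltransferase that keeps Hox genes active (log2 fold change 1.33 ± 0.18, adjusted p = 0.000181), Rbbp4 (1.12 ± 0.28, adjusted p = 0.00972) and Psip1 (1.17 ± 0.31, adjusted p = 0.0133). The lower gene was Ezh2, the methyltransferase of Polycomb complex PRC2 (-1.39 ± 0.41, adjusted p = 0.0240). After agonist none of 25 tested was called, with 3 at an unadjusted p under 0.05. Of 18 retinoic acid genes, 9 were tested after corn oil, 1 was higher and 2 lower, near the same background of 25.4%. Rarb, a receptor that is itself switched on by retinoic acid, was at 36.7 to 57.8 TMM-scaled CPM against 8.58, 1.50, 16.1 and 17.6 (log2 fold change 2.20 ± 0.59, adjusted p = 0.0142). Aldh1a1, which makes retinoic acid, was lower (-4.56 ± 0.91, adjusted p = 0.00237), as was Dhrs3, which turns retinal back to retinol (-3.35 ± 0.74, adjusted p = 0.00454). Aldh1a1 and Dhrs3 were lower after agonist too (-6.00 and -3.31, adjusted p = 0.00983 and 0.0311), while Rarb was not called there (2.25, adjusted p = 0.0589).

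Noncoding genes of the Hox clusters and the CDX genes gave few values. Of 14 cluster RNAs listed, 10 were found in the table and 5 tested after corn oil, none of them called (edgeR; 2 at an unadjusted p under 0.05). Hotairm1, transcribed from beside Hoxa2 on the opposite strand, was higher in neuronal nuclei after agonist, the only 1 of 3 tested that was called (6.67% of all genes tested were called higher): 45.6, 26.3, 27.3 and 18.6 TMM-scaled CPM against 0, 2.71, 0 and 1.16 (log2 fold change 4.87 ± 1.36, adjusted p = 0.0260). After corn oil Hotairm1 was at 20.4 ± 10.3 and 9.39 ± 10.6 (adjusted p = 0.324). Cdx1 and Cdx2, intestinal epithelial regulators that act upstream of posterior Hox genes, were at 0 in 3 of 4 neuronal libraries after corn oil. In non-neuronal nuclei Cdx1 stood at 6.51, 24.0, 9.27 and 0 and Cdx2 at 1.48, 3.75, 9.27 and 1.55. None of these 5 lists had a member called in either agonist response; in neuronal nuclei 4 Polycomb and Trithorax genes and 1 retinoic acid gene had an unadjusted p under 0.05, and in non-neuronal nuclei none did.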

How the data were processed

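Nuclei sorted from the colon muscle layer were sequenced as 16 single-end libraries (4 groups of 4). Per the submitters' processing notes, the authors used STAR 2.5.2 and RSEM 1.3.0 on GRCm38, and DESeq2 1.10.1; neither a role for each tool nor a strand setting or annotation release was found in the labels. The values the authors deposited are RSEM expected counts per Ensembl gene, which split a read between overlapping genes by estimate. They were rounded to whole numbers here, and symbols were added by Ensembl ID from GENCODE for GRCm38 (51719 of 51912 IDs matched, 193 did not).

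Each comparison used edgeR 4.0.16 (R 4.3.3) with TMM scaling, genes that passed filterByExpr (count minimum 10, total 15), the robust two-sided quasi-likelihood test and Benjamini-Hochberg adjustment over all genes tested, with an adjusted p under 0.05 called. SE is the log2 fold change divided by the root of its F statistic. Levels are TMM-scaled CPM from 1 scaling of all 16 libraries, and TPM with the union of exons as length. Summed counts set against 0 use a floor of 3 counts over the group. Intervals and floors cover counting error only, and reads carry no molecular identifiers. The fit was checked on simulated counts. Figures used matplotlib 3.10.9. Alternatives were library size alone, DESeq2 1.42.0, no count minimum, all 4 groups in 1 fit, the replicate number as a block, leaving out each library or those over 30% mitochondrial counts, the longest transcript as length and, added after seeing the data, overlapping genes summed and, for genes with few counts, the fullest library left out.

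The 39 genes and all lists (PBX, MEIS and PREP cofactors, CDX and other ParaHox genes, Polycomb and Trithorax genes, retinoic acid genes, Hox cluster RNAs, cell markers) were chosen with earlier results of these data known. Any Hox gene could be named, and from the lists only members that were called, up to 10 by p-value, or defining markers; Meis1, Cdx1 and Cdx2 were named after their values were seen. Labels give each group replicate numbers 1 to 4 but no shared origin. Deviations from the group means correlated at -0.10 to 0.18 between same-numbered libraries, which does not settle whether they were paired. Values of a few members of the gene set and lists are not reported here; they remain in the counts, sums and shares.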

Additional observations from a re-analysis of the deposited data

Results flagged for a closer look

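In groups of 4 libraries, a library was singled out where its gap to the nearest other took a larger part of the group's range than Dixon's 95% limit allows. This held in 13 of 78 groups checked. For normally distributed values the limit is passed in about 1 in 20. Levels from few counts and shares need not be distributed so, and 13 of 78 is therefore no measure of an excess. In 3 of the 13 the other libraries were all at 0, so that any count in the remaining library meets the limit by construction, and these 3 say nothing beside that rate.

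Among neuronal libraries after agonist, Hoxb3 stood at 128.8 TMM-scaled CPM in library 1 (others 24.14 to 41.6), Hoxd10 at 16.89 in library 1 (others 0) and Hoxd3 at 31.91 in library 4 (others 76.13 to 80.98). In neuronal libraries after corn oil, Hoxa10 stood at 3.591 and Hoxd8 at 5.13 in library 2 (others up to 0.2615 and 0.5236), and Hoxd10 at 0.4833 and Hoxd11 at 0.9667 in library 3 (others 0). Non-neuronal libraries after corn oil had Hoxb3 at 30.47 in library 1 (others 18.4 to 19.94), Hoxb6 at 84.93 in library 3 (others 24.78 to 31.65) and Hoxd10 at 50.23 in library 4 (others 10.51 to 13.9). After agonist, non-neuronal library 3 had Hoxd3 at 58.31 (others 0 to 9.928).

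The share of the summed Hox TPM from paralogue groups 4 to 8 was 39.76% in neuronal library 4 after corn oil (others 45.28% to 46.06%). The share from groups 9 to 13 was 63.53% in non-neuronal library 1 after agonist (others 23.47% to 28.4%), the library that held 172 TMM-scaled CPM of Hoxa10.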

How the results depend on the processing

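Over all results, 325 values from leaving out 1 library kept their direction and side of the threshold, 9 lost a call, 4 gained one and 4 turned direction; under the other alternatives the counts were 225, 7, 10 and 1. After corn oil, the 2 Hox genes called higher stayed at 2 under every left-out library and became 1 with all 4 groups in 1 fit; the 4 called lower became 8 with no count minimum, 2 with all 4 groups in 1 fit, and 2 to 7 with 1 library left out. After agonist, the 2 called higher became 4 with all 4 groups in 1 fit; the 1 called lower became 0 with library size alone, 2 with DESeq2, 3 with no count minimum, 6 with all 4 groups in 1 fit and 0 to 2 with 1 library left out. Genes called overall after agonist numbered 1918, and 2937 with DESeq2, 3324 with no count minimum and 4590 with all 4 groups in 1 fit. For the neuronal response the 0 became 9 with DESeq2 and 152 with no count minimum. For the non-neuronal response the 2 became 0 with library size alone, 35 with DESeq2, 88 with no count minimum, 11 with all 4 groups in 1 fit, 1 without the libraries over 30% mitochondrial counts and 0 to 2 with 1 library left out. For the difference between responses the 0 became 103 with DESeq2 (Hox genes called higher 1), 110 with no count minimum (Hox genes called lower 1), 7 without those mitochondrial libraries and 0 to 9 with 1 library left out. The cause of these changes was not tested.

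Single values that turned direction were Hoxd4 after corn oil (2.356 when summed with Hoxd3 and Gm28230, a unit made up mostly of Hoxd3), Hoxb5 after agonist (-1.206 to 0.03278 with 1 library left out), Hoxd10 after agonist (-7.414 to 0.04381), the neuronal response of Hoxa2 (-0.103 to 0.5067), and the difference of Hoxd10 (-0.4531 to 8.72). The share of paralogue groups 4 to 8 in neuronal nuclei after corn oil was 38.68% with the longest transcript as length. With the replicate number as a block, Hoxa9 after corn oil gave -4.284 (edgeR adjusted p = 0.0539) and lost its call; no other call of a Hox gene named in a comparison changed, with 2 higher and 3 lower after corn oil and 2 higher and 1 lower after agonist. Not every library correlated best with its own number. Genes at a few counts, most of all posterior ones in neuronal nuclei and the Hoxc cluster, are limited by depth.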
